A study of Mus musculus with 8 samples.

Results

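The Obox genes are a mouse family of homeobox genes that code for DNA-binding transcription factors of the oocyte and early embryo. Obox1, Obox2, Obox3 and Obox6 were examined in pools of 2-cell mouse embryos that differed in their father. The members were found as the probesets annotated to exactly 1 of these symbols, with the brightest taken per symbol by its mean over all 8 arrays. Each symbol had 1 such probeset, so all 4 members were measured, out of 14995 genes with 1 symbol, and all 4 were among the 11444 genes that passed the filter on low values and were tested. No probeset carried an Obox symbol together with another symbol.

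The embryos came from C57BL/6 females stimulated with 5 IU of the gonadotropins eCG and hCG, and were flushed from the oviduct 46 to 48 hours after hCG, 26 per pool on average. The pools were sired by males transgenic for the histone demethylase KDM1A (KDM1A TG, 3 arrays) or by their littermates without the transgene (nonTG, 2 arrays). The rest were sired by C57BL/6 males (3 arrays). All mothers were C57BL/6, and the sire is the only difference between the groups that the labels give. Whether the groups also differed in other ways is not given. The labels name neither the promoter of the transgene nor the number of males, the genotype of the embryos is not given, and no label says that the pools came from separate matings. The p-values below therefore cover differences among pools of a group, which may be technical in origin. No probeset carried the symbol Kdm1a alone, so the labels were not checked against the transgene.

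OBOX proteins share a homeodomain and act in a partly redundant way in activation of the embryonic genome, which in the mouse takes place mainly at the 2-cell stage. Obox1 and Obox2 are treated as maternal members, whose transcripts are stored in the oocyte and decline after fertilization. Obox3 and Obox6 are treated as zygotic members, transcribed by the embryo. In a mouse 2-cell embryo the stored and the newly made transcripts are present together, and the arrays cannot tell them apart.

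The genes lie in 1 cluster on chromosome 7. In the GRCm38.p6 annotation the order is Obox7, Obox2, Obox1, Obox3, Obox5 and Obox6, 6 protein-coding genes among 45 annotated Obox pseudogenes on that chromosome. Signals of such close copies are uncertain, because probes for one gene can bind transcripts of another, and probe sequences were not used here. RefSeq promoter windows, from 250 bases before to 50 after the annotated start, were found for 3 of the 4 members and are shown because they display how alike the maternal and zygotic members are. They are written 5′ to 3′ on the strand of the gene, and the capitals mark the longest stretch that all 3 share. The windows lie in GRCm38.p6 at chr7:15547007-15547306 (plus strand) for Obox1, at chr7:15388601-15388900 (plus strand) for Obox2 and at chr7:15639728-15640027 (minus strand) for Obox3.
Obox1: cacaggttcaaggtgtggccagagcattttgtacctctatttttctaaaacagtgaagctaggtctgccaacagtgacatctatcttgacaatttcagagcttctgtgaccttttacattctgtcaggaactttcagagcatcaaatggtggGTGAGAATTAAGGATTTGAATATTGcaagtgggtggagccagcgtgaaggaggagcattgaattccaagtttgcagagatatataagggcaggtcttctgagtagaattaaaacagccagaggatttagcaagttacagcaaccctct
Obox2: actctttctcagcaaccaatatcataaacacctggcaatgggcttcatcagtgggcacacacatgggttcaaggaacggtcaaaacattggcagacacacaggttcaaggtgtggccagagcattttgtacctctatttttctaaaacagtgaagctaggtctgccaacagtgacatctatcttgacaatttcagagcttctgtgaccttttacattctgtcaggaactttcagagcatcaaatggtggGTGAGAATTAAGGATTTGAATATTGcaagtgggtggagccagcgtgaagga
Obox3: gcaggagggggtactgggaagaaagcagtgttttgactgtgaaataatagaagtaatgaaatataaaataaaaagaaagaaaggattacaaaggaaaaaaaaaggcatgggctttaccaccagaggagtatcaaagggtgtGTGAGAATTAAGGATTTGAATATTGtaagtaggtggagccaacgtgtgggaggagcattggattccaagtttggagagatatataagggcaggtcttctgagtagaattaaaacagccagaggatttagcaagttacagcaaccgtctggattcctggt

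The shared stretch is 25 bases long. It is present in 5 of 32817 promoter windows of the mouse annotation, and these are the windows of Obox1, Obox2, Obox3, Obox5 and Obox7. The windows of the maternal pair Obox2 and Obox1 have 203 bases in a row in common, the longest run among the members. Obox1 and Obox3 have 70 bases in a row in common around the start, and Obox2 and Obox3 have 25. The TATA-like letters TATATAA, searched on both strands, occur in 3.25% of all windows, 19 bases before the start of Obox1 and 30 bases before that of Obox3. They are not in the Obox2 window, but that window ends too early to show them. The run it shares with Obox1 reaches its last base, and in Obox1 the letters come after that run. GGATTA, the core bound by CRX-type homeodomains, occurs in 7.06% of all windows on either strand and once in that of Obox3, 168 bases before the start, and is not in the windows of Obox1 and Obox2. The E-box letters CANNTG, bound by basic helix-loop-helix factors such as FIGLA of the oocyte, occur in 72.3% of all windows. They are at 2 places for Obox1, at 4 for Obox2 and at 0 for Obox3. The Obox1 places, at -108 and -73 from its start, are the same bases as the Obox2 places at -11 and 24. The Obox2 places at -222 and -191 lie before the run that both windows share. Such counts and the lengths of shared runs depend on where each start is annotated. These matches describe letters and are not evidence of binding.

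The deposited values are log2 expression summaries, with medians of 2.73 to 2.86 per array. The interquartile range was 2.38 and 2.60 in KDM1A TG replicates 1 and 3, against 1.87 to 2.09 in the other 6 arrays, so comparisons with KDM1A TG are also given without these arrays. Across the 8 arrays the oocyte and 2-cell markers Zp3, a coat protein of the egg, ran from 3.57 to 5.75, Bmp15, a growth factor of the oocyte, from 4.33 to 6.18, and Zscan4c, an activation gene of the 2-cell stage, from 2.72 to 4.45. The filter level was 2.07, and the number of arrays limits the precision of every value below. Foxj1, a regulator of motile cilia in oviduct epithelium, stood at 4.62 to 6.29, and the smooth muscle actin gene Acta2 at 3.70 to 7.88, so RNA of markers of other cell types was measured in every pool.

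Obox1, a maternal member, had log2 values of 4.07, 5.40 and 5.20 in the KDM1A TG arrays, 3.72 and 5.03 in the nonTG arrays and 6.00, 4.32 and 5.00 in the C57BL/6 arrays. Each group held both a low and a high array, and the groups overlapped throughout. The means were 4.89 ± 0.72 (SD, n = 3) in KDM1A TG, 4.38 ± 0.93 (SD, n = 2) in nonTG and 5.11 ± 0.85 (SD, n = 3) in C57BL/6.

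Obox2, the other maternal member, had values of 5.84, 6.38 and 5.64 in the KDM1A TG arrays, 6.02 and 5.08 in the nonTG arrays and 6.22, 5.67 and 6.35 in the C57BL/6 arrays. The lowest array was nonTG replicate 2, whereas nonTG replicate 1, the lowest for the other 3 members, lay inside the range of both other groups. The means were 5.95 ± 0.38 (SD, n = 3) in KDM1A TG, 5.55 ± 0.66 (SD, n = 2) in nonTG and 6.08 ± 0.36 (SD, n = 3) in C57BL/6.

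Obox3, a zygotic member whose protein activates genes of the 2-cell stage in mouse cells, had values of 4.76, 5.92 and 5.23 in the KDM1A TG arrays, 4.17 and 5.40 in the nonTG arrays and 5.51, 5.20 and 5.70 in the C57BL/6 arrays. The C57BL/6 arrays lay close together, and both other groups had an array below and an array inside or above their range. The means were 5.30 ± 0.58 (SD, n = 3) in KDM1A TG, 4.78 ± 0.87 (SD, n = 2) in nonTG and 5.47 ± 0.25 (SD, n = 3) in C57BL/6.

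Obox6, a zygotic member that is dispensable for fertility in mice, had values of 5.86, 6.76 and 5.50 in the KDM1A TG arrays, 5.09 and 5.96 in the nonTG arrays and 6.15, 5.36 and 6.57 in the C57BL/6 arrays. KDM1A TG replicate 2 was the highest array and nonTG replicate 1 the lowest, and the groups overlapped. The means were 6.04 ± 0.65 (SD, n = 3) in KDM1A TG, 5.53 ± 0.62 (SD, n = 2) in nonTG and 6.03 ± 0.61 (SD, n = 3) in C57BL/6. For all 4 members nonTG had the lowest mean. The order of KDM1A TG and C57BL/6 was C57BL/6 first for Obox1, Obox2 and Obox3, with Obox6 nearly level, and no neighbours in these orders differed beyond their spread.

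**Figure D1:**
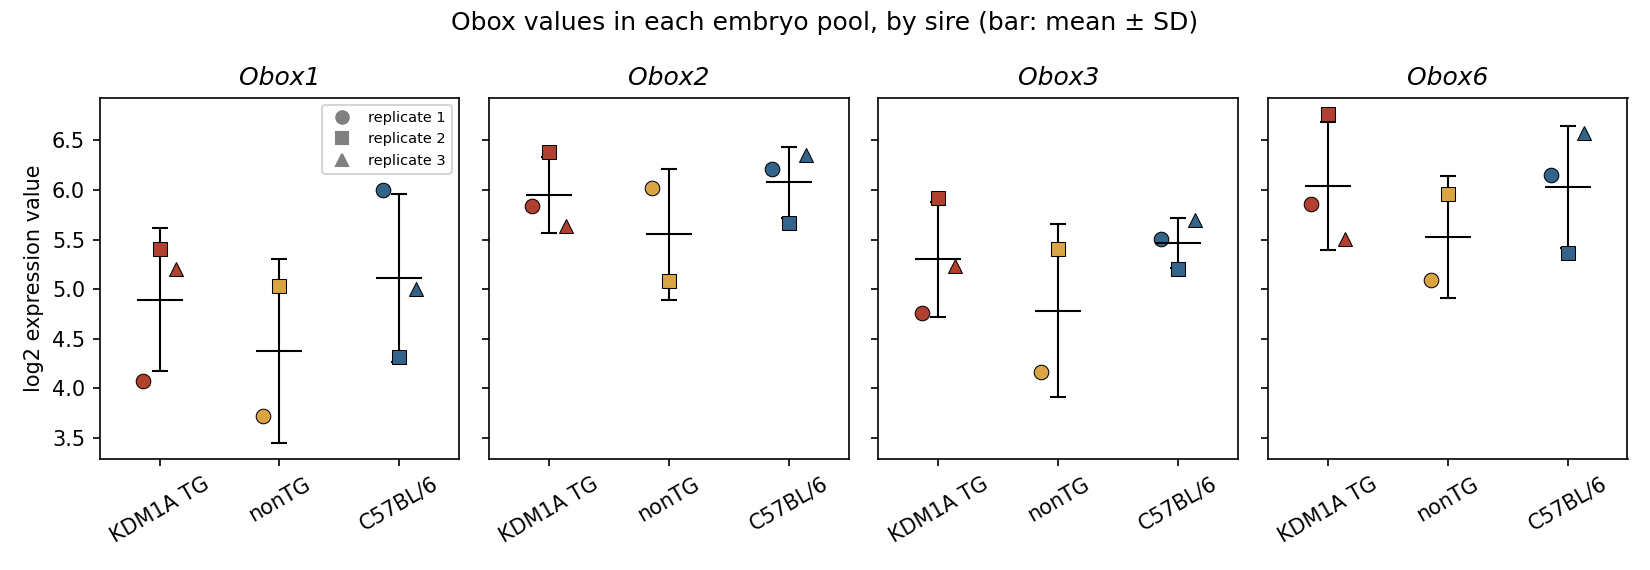
Log2 expression value of each Obox member (vertical axis) in each embryo pool, by sire group (horizontal axis), with symbols for replicates and black bars for mean ± SD. The groups overlap for every member, and levels are not to be compared between genes.

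Embryos of KDM1A TG sires were set against those of C57BL/6 sires to ask whether the transgenic sire goes with another Obox level (n = 3 and 3). Of the 4 members, 0 passed limma's test at an adjusted p of 0.05, where 0.725% of the 11444 genes tested did, and 0 had an unadjusted p under 0.05, where 14.2% of all genes did. The arrays did not overlap for 0 of 4 members, against 19.8% of all genes. The fitted change was below 0 for 3 of 4 members and for 35.1% of all genes. Among the maternal members, the log2 change was -0.22 for Obox1 (SE 0.36, 95% interval -0.93 to 0.50, adjusted p = 0.781 by limma) and -0.13 for Obox2 (SE 0.33, interval -0.79 to 0.53, adjusted p = 0.866 by limma). Among the zygotic members it was -0.17 for Obox3 (SE 0.34, interval -0.84 to 0.51, adjusted p = 0.821 by limma) and 0.01 for Obox6 (SE 0.34, interval -0.67 to 0.70, adjusted p = 0.988 by limma). In fold terms the intervals reach from 0.524 to 1.42 for Obox1 and from 0.627 to 1.62 for Obox6. Changes inside these bounds are not excluded by the fit, and the bounds do not mark what size of change could be seen. The SE of limma draws on the spread of all genes. All 4 members varied more within groups than the median gene (SD 0.45 to 0.82, against 0.36). Their intervals are thus narrower, and their p-values smaller, than their own spread alone would give in each comparison, most so for Obox1.

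Over all genes tested the median log2 change was 0.18, which moved to 0.07 after cyclic loess normalization and to 0.25 after median centring. Relative to it the members stood at -0.40 for Obox1, -0.31 for Obox2, -0.35 for Obox3 and -0.17 for Obox6. Without both KDM1A TG arrays of wide range (replicates 1 and 3), a fit with a single KDM1A TG array that is assumed to vary like the arrays of the other groups, the log2 changes were 0.30, 0.30, 0.45 and 0.73 in the same order of genes (adjusted p = 0.998 for each by limma). With array weights, under which 1694 genes passed instead of 83, Obox1 passed as lower (log2 change -0.90, adjusted p = 0.0399 by limma), and its adjusted p was 0.421 or more in the other alternatives.

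Embryos of nonTG sires, the littermates of the transgenic males, were set against those of C57BL/6 sires (n = 2 and 3). Again 0 of 4 members passed, where 0.131% of all genes did, and 0 had an unadjusted p under 0.05, where 8.22% did. The arrays overlapped for every member, against 24.8% of genes without overlap. All 4 members had a log2 change below 0, as did 46.8% of all genes. The maternal members gave -0.73 for Obox1 (SE 0.40, interval -1.53 to 0.07, adjusted p = 0.649 by limma) and -0.53 for Obox2 (SE 0.37, interval -1.26 to 0.21, adjusted p = 0.715 by limma). The zygotic members gave -0.68 for Obox3 (SE 0.38, interval -1.44 to 0.07, adjusted p = 0.653 by limma) and -0.50 for Obox6 (SE 0.38, interval -1.27 to 0.26, adjusted p = 0.726 by limma). Fitted ratios of nonTG to C57BL/6 were thus 0.602, 0.695, 0.622 and 0.705. Both nonTG arrays lay below the C57BL/6 mean for every member.

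These values rested on different nonTG pools. Without nonTG replicate 1 the log2 changes of Obox1, Obox3 and Obox6 were -0.08, -0.07 and -0.07, and that of Obox2 was -0.995. Without nonTG replicate 2 they were -1.39, -1.30 and -0.94, and that of Obox2 was -0.06. In each of these fits 1 nonTG array was left and assumed to vary like the other groups, and adjusted p values were 0.504 or more by limma.

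Embryos of KDM1A TG sires were also set against those of nonTG sires, the comparison in which the sires differ in the transgene within the same line (n = 3 and 2). None of the 4 members passed, with 0 at an unadjusted p under 0.05, where 0.0437% and 6.41% of all genes did in limma's test. Again 0 members had arrays that did not overlap, against 22.4% of all genes, and 0 had a change below 0, against 34.6%. The log2 changes were 0.52 for Obox1 (SE 0.40, interval -0.29 to 1.32), 0.40 for Obox2 (SE 0.37, interval -0.34 to 1.14), 0.52 for Obox3 (SE 0.38, interval -0.24 to 1.27) and 0.52 for Obox6 (SE 0.38, interval -0.25 to 1.28). Their adjusted p values by limma were 0.847, 0.848, 0.847 and 0.847, and the median of all genes was 0.16. This comparison and the one before share the nonTG arrays, and both comparisons with C57BL/6 share the C57BL/6 arrays. Without nonTG replicate 1 the changes of Obox1 and Obox3 turned to -0.14 and -0.10, and without nonTG replicate 2 that of Obox2 turned to -0.07. With KDM1A TG replicate 2 as the single KDM1A TG array, the changes were 1.03 for Obox1, 0.83 for Obox2, 1.13 for Obox3 and 1.24 for Obox6 (adjusted p = 0.98 for each by limma).

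**Figure D2:**
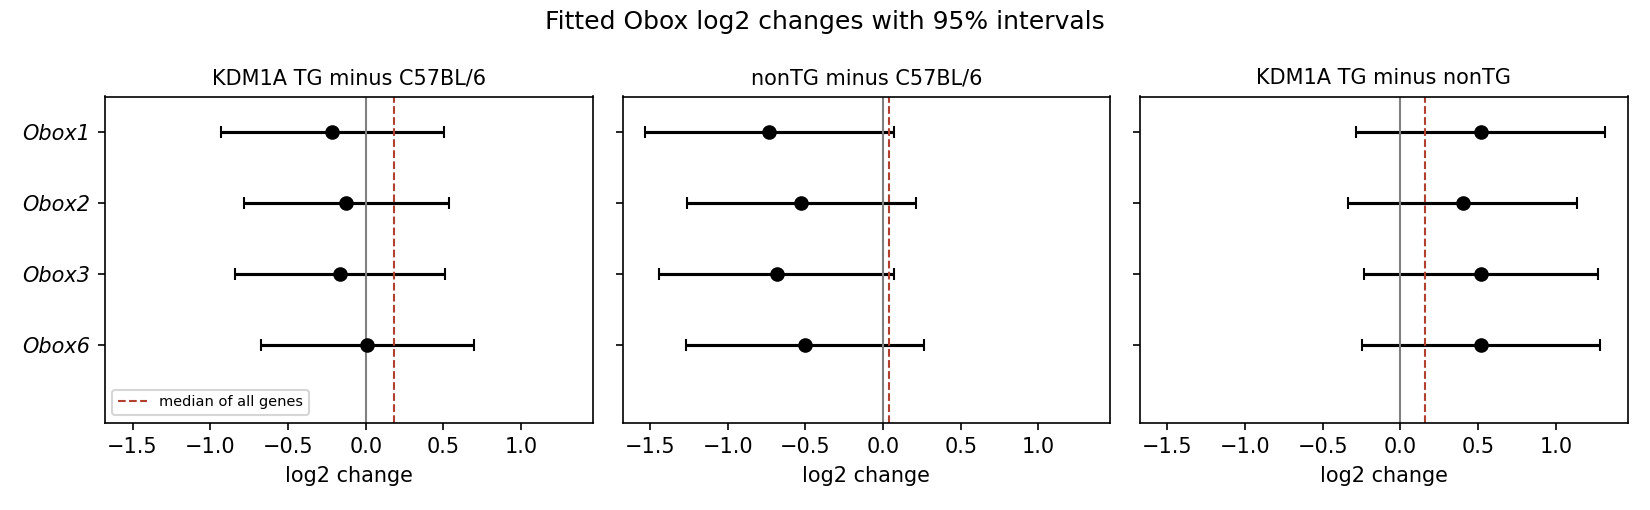
Fitted log2 change of each Obox member (horizontal axis) in the 3 comparisons, with 95% intervals from limma. Every interval includes 0, drawn as a grey line, and the dashed line is the median change of all genes tested.

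The members differed more between pools of the same sire group than most genes did. The SD within groups was 0.82 for Obox1, 0.45 for Obox2, 0.56 for Obox3 and 0.63 for Obox6 on the log2 scale, against a median of 0.36 over all genes tested. Obox1 stood at percentile 98.4 of genes by this spread, Obox6 at 93.8, Obox3 at 89.1 and Obox2 at 73.1.

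Of the 6 pairs of members, 2 passed a test of Pearson r over the pools, and both include Obox3. Only Obox3 with Obox6 also passed by Spearman rho. The share of all gene pairs that would pass was not computed, so the count is not read as a trait of the family. An r above 0.9 was reached by 80 other genes (0.699%) for Obox3 and by 122 (1.07%) for Obox6. The zygotic pair Obox3 and Obox6 varied together over the 8 arrays (Pearson r = 0.84, exact permutation p = 0.00786, adjusted p = 0.0366 over the 6 pairs of members, and Spearman rho = 0.93, exact permutation p = 0.00223, adjusted p = 0.0134). So did the maternal Obox1 with the zygotic Obox3 (r = 0.82, exact permutation p = 0.0122, adjusted p = 0.0366, and rho = 0.79, exact permutation p = 0.0279, adjusted p = 0.0837). The maternal pair Obox1 and Obox2, whose promoter windows share the longest stretch among the members, gave r = 0.21 (exact permutation p = 0.615, rho = 0.21, p = 0.619). Obox2 gave r = 0.23 with Obox3 (rho = 0.52) and r = 0.49 with Obox6 (rho = 0.60), and Obox1 gave r = 0.64 with Obox6 (rho = 0.67), with exact permutation p of 0.571, 0.217 and 0.0863 for these values of r and of 0.197, 0.132 and 0.0831 for rho (adjusted p = 0.615, 0.326 and 0.173 for r, and 0.236, 0.198 and 0.166 for rho). Whether these coefficients differ from each other was not tested.

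With deviations from the group means, r was 0.81 for Obox3 with Obox6 and 0.78 for Obox1 with Obox3, close to the values over all arrays. Leaving out the 2 arrays farthest from the median of the first gene left 6 arrays. The r of Obox1 and Obox3 was then 0.82 (exact permutation p = 0.0431, adjusted p = 0.259), and that of Obox3 and Obox6 was 0.61 (exact permutation p = 0.189, adjusted p = 0.378) without KDM1A TG replicate 2 and nonTG replicate 1. Neither pair passed after adjustment with the 6 arrays left. For Obox1 with Obox3 r did not fall, and fewer arrays make the test weaker. Other sets of arrays were not tried for these pairs. For Obox1 with Obox2, Obox1 with Obox6, Obox2 with Obox3 and Obox2 with Obox6 r was 0.20, 0.53, 0.31 and 0.70 without their 2 arrays.

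**Figure D3:**
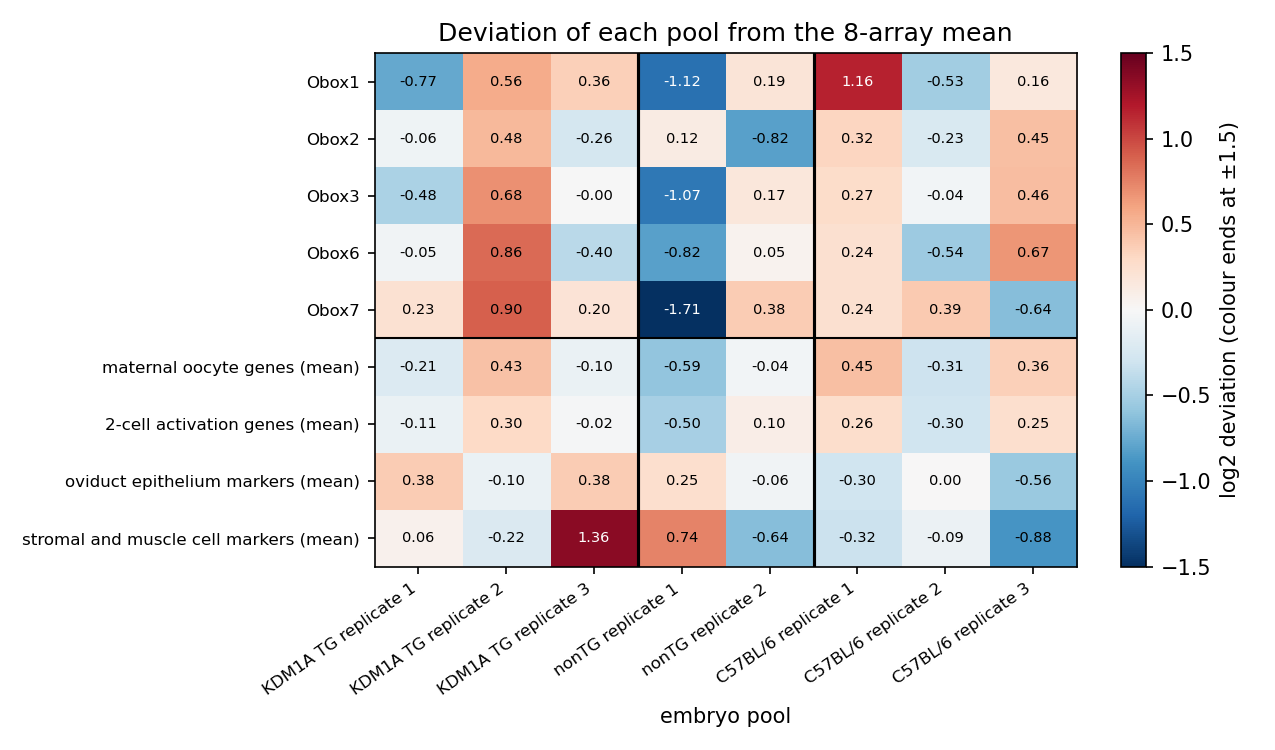
Log2 deviation of each pool (columns, grouped by sire) from the mean over the 8 arrays, for Obox members, for Obox7 and for the means of 4 gene lists (rows), with blue for below and red for above the mean. KDM1A TG replicate 2 was above the mean for all 4 members, and nonTG replicate 1 was below it for Obox1, Obox3 and Obox6 and above it for Obox2.

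The members were then set against gene lists of the same embryos. Of 49 listed maternal oocyte genes, 36 had a probeset and 35 were tested, and none passed in any of the 3 comparisons. Their median log2 change was -0.17 with 25 below 0 in KDM1A TG set against C57BL/6. In nonTG set against C57BL/6 it was -0.62 with 28 below 0, and in KDM1A TG set against nonTG it was 0.43 with 28 above 0. The medians of the Obox members were -0.15, -0.61 and 0.52, and those of all genes 0.18, 0.04 and 0.16. Of 44 listed genes of 2-cell activation, 39 had a probeset and 35 were tested. None of these passed either, with medians of -0.03 (19 below 0), -0.23 (24 below 0) and 0.32 (27 above 0). The 4 genes of each list with the smallest unadjusted p in any comparison are given next, and none of them passed (adjusted p between 0.124 and 0.932 by limma), with values in the same order of comparisons.

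Among maternal genes, Fbxw15, an F-box gene of the oocyte, had log2 changes of -0.07, -1.30 and 1.23, and Npm2, a histone chaperone of the egg, of -0.21, -1.05 and 0.84. Dppa3, which protects maternal DNA methylation in the zygote, had -0.30, -1.11 and 0.81. Plat, the tissue plasminogen activator gene, had 1.05, 0.26 and 0.79. Among activation genes, Pramel6, active in early embryos, had -0.12, -1.15 and 1.03, and Dppa4, a chromatin-associated factor, had -0.17, -1.09 and 0.92. Tmem92 had 0.18, -0.96 and 1.14, and the deubiquitinase gene Usp17lc had -0.82, -1.18 and 0.36.

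The mean of the maternal list went with Obox1, Obox3 and Obox6 from pool to pool, and its relation with Obox2 did not pass. It was 4.38, 5.02 and 4.49 in the KDM1A TG arrays, 3.99 and 4.54 in the nonTG arrays and 5.03, 4.27 and 4.94 in the C57BL/6 arrays. Between 4.54 and 4.94 it had a gap, with 3 arrays above and 5 below it, too few to give the relation on either side alone. Its r over the 8 arrays was 0.88 with Obox1, 0.89 with Obox3 and 0.91 with Obox6 (rho = 0.88, 0.90 and 0.90, exact permutation p = 0.00546, 0.00131 and 0.00273 for r and 0.00724, 0.00456 and 0.00456 for rho, adjusted p = 0.0109, 0.00819 and 0.00819 for r and 0.0174, 0.0137 and 0.0137 for rho over 12 relations). With Obox2 it was 0.50 (rho = 0.48, exact permutation p = 0.205 and 0.243, adjusted p = 0.246 and 0.265). Without C57BL/6 replicate 1 and nonTG replicate 1 these 4 values of r were 0.73 for Obox1, 0.88 for Obox3, 0.95 for Obox6 and 0.70 for Obox2, with exact permutation p of 0.0986, 0.0194, 0.0125 and 0.125 and adjusted p of 0.05 or more.

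The maternal list was high in KDM1A TG replicate 2 and C57BL/6 replicates 1 and 3, and both zygotic members had their highest values there. Obox1 was highest in C57BL/6 replicate 1 and KDM1A TG replicate 2. In C57BL/6 replicate 3 it stood at 5.00, below KDM1A TG replicate 3 (5.20) and nonTG replicate 2 (5.03). The mean of the 2-cell activation list gave r = 0.87 with Obox1, 0.90 with Obox3, 0.92 with Obox6 and 0.31 with Obox2 (rho = 0.86, 0.95, 0.95 and 0.52, exact permutation p = 0.00508, 0.00226, 0.00166 and 0.458 for r and 0.0107, 0.00114, 0.00114 and 0.197 for rho, adjusted p = 0.0109, 0.00819, 0.00819 and 0.458 for r and 0.0214, 0.00684, 0.00684 and 0.236 for rho). Without C57BL/6 replicate 2 and nonTG replicate 1 r was 0.74, 0.94, 0.83 and 0.60, and of these 4 relations that of Obox3 had an adjusted p under 0.05 (exact permutation p = 0.00278, adjusted p = 0.0334). Like the maternal mean, the activation mean was highest in KDM1A TG replicate 2 and C57BL/6 replicates 1 and 3 and lowest in nonTG replicate 1. The relations with the maternal and activation lists are therefore not separate results.

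Markers of oviduct epithelium gave negative coefficients with all 4 members, none of which passed. Their mean over 22 of 24 listed genes was 5.24, 4.76 and 5.24 in the KDM1A TG arrays, 5.11 and 4.80 in the nonTG arrays and 4.56, 4.86 and 4.30 in the C57BL/6 arrays. Of these 22 genes, 19 had a change above 0 in KDM1A TG and 18 in nonTG against C57BL/6, and the sulfotransferase gene Sult1d1 alone passed in each (adjusted p = 0.0471 and 0.0122 by limma). The r of the oviduct mean was -0.54 with Obox1, -0.43 with Obox2, -0.67 with Obox3 and -0.68 with Obox6 (rho = -0.43, -0.62, -0.76 and -0.74, exact permutation p = 0.171, 0.284, 0.0648 and 0.0658 for r and 0.299, 0.115, 0.0368 and 0.0458 for rho, adjusted p = 0.228, 0.31, 0.0987 and 0.0987 for r and 0.299, 0.153, 0.0631 and 0.0687 for rho). With deviations from the group means r was -0.60, -0.43, -0.83 and -0.98, and without C57BL/6 replicate 3 and KDM1A TG replicate 3 it was -0.91, -0.15, -0.78 and -0.52. For these 6 arrays exact permutation p was 0.00972, 0.796, 0.0694 and 0.292 (adjusted p = 0.05, 0.796, 0.126 and 0.319). With the oviduct mean as a covariate the log2 changes of Obox1, Obox2, Obox3 and Obox6 became 0.70, 0.24, 0.71 and 1.17 for KDM1A TG against C57BL/6 (unadjusted p = 0.155, 0.583, 0.0932 and 0.00526, adjusted p = 0.623, 0.886, 0.562 and 0.328 by limma). For nonTG against C57BL/6 they became -0.04, -0.25, -0.02 and 0.37 (unadjusted p of 0.332 or more and adjusted p of 0.876 or more by limma). For KDM1A TG against nonTG they became 0.75, 0.49, 0.74 and 0.80 (unadjusted p = 0.0615, 0.159, 0.0316 and 0.0149, adjusted p = 0.526, 0.651, 0.45 and 0.381 by limma).

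Stromal and muscle cell markers, 19 of 19 measured, ran from 4.33 to 5.91 in the KDM1A TG arrays, from 3.91 to 5.29 in the nonTG arrays and from 3.67 to 4.46 in the C57BL/6 arrays. Against C57BL/6, 19 had a change above 0 in KDM1A TG (median 0.96, with 1 passing as higher) and 15 in nonTG (median 0.57, none passing). In KDM1A TG against nonTG 17 did (median 0.26, none passing). Among blood and immune cell markers 1 passed as lower in KDM1A TG against C57BL/6. Blood and immune cell markers (13 of 19 genes) lay between 2.97 and 4.14 over all arrays, cumulus and granulosa cell markers (8 of 17) between 2.36 and 3.42, and sperm markers (6 of 16) between 2.54 and 3.07. In a pool, fewer embryo cells among other cells and less Obox RNA per embryo cell cannot be told apart, and the part of the other cell types in the Obox values was not tested beyond the covariate.

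**Figure D4:**
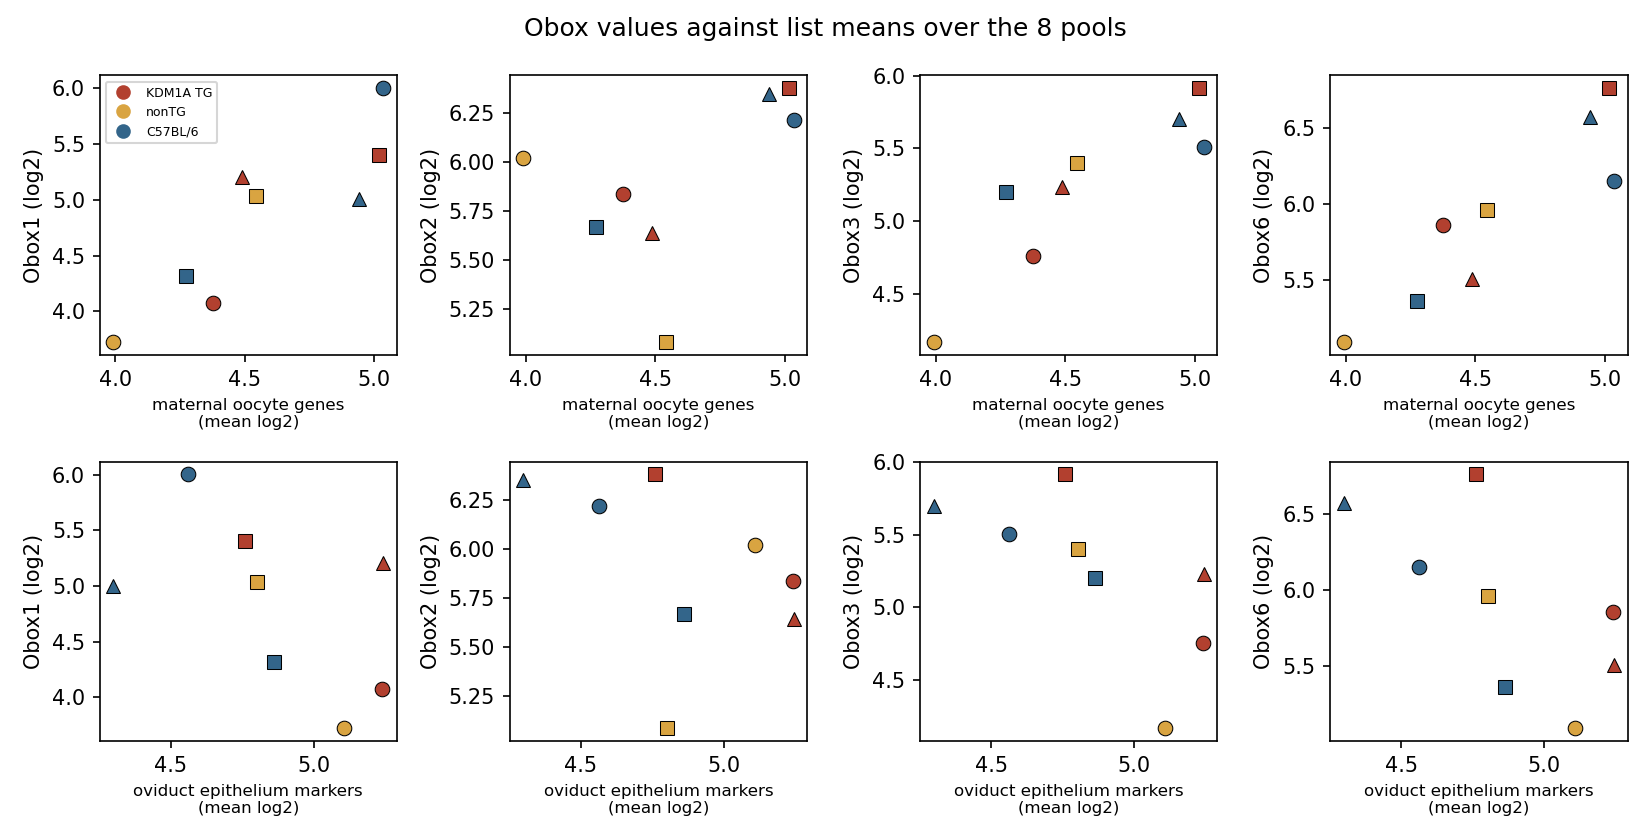
Log2 value of each Obox member (vertical axes) against the mean log2 value of maternal oocyte genes (upper row) and of oviduct epithelium markers (lower row) in each of the 8 pools. Colours give the sire group and circles, squares and triangles replicates 1, 2 and 3, and Obox1, Obox3 and Obox6 go up with the maternal mean with r between 0.88 and 0.91.

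The genes whose pattern over the 8 arrays was most like each member were ranked by Pearson r, as a description of these arrays, whose RNA all the genes share. Over all 11443 other genes the median r was -0.07 for Obox1, -0.06 for Obox2, -0.10 for Obox3 and -0.12 for Obox6. For Obox1 the highest r belonged to Hivep1, a zinc finger gene (0.96), Gtdc1 (0.95), the rhomboid protease gene Rhbdd1 (0.95), the oocyte-secreted protein gene Oosp1 (0.94) and Ccndbp1 (0.94). For Obox2 they were the desmosomal cadherin gene Dsc3 (0.95), Ublcp1 (0.94), Gtf3c4 of RNA polymerase III transcription (0.93), Zfp558 (0.93) and the cyclin gene Ccnl2 (0.92). For Obox3 they were Pramel26 (0.98), the forkhead gene Foxr1 (0.97), the splicing factor gene Cdc5l (0.97), the oocyte RING finger gene Rfpl4 (0.97) and the amino acid transporter gene Slc6a15 (0.97). For Obox6 they were the purine salvage gene Hprt (0.99), the poly(A) polymerase gene Papolb (0.98), the mitotic survivin gene Birc5 (0.98), the homeobox gene Cphx1 (0.98) and the RNA polymerase III subunit gene Polr3a (0.98). None of the 5 genes named for one member was among the 5 of another. An r above 0.9 was reached by 80 genes (0.699%) for Obox3 and by 122 (1.07%) for Obox6, against 31 (0.271%) for Obox1 and 22 (0.192%) for Obox2.

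Obox7, the only other Obox gene with a probeset of its own symbol here, had values of 3.10, 3.76 and 3.07 in the KDM1A TG arrays, 1.16 and 3.25 in the nonTG arrays and 3.11, 3.26 and 2.23 in the C57BL/6 arrays. It stood lowest in nonTG replicate 1, like Obox1, Obox3 and Obox6, but its 1.16 there is below the filter level of 2.07. The members stood at 3.72, 4.17 and 5.09 in that array. The Obox7 changes that involve nonTG rest in part on this low value. Set against C57BL/6, its log2 change was 0.44 in KDM1A TG and -0.67 in nonTG, and between KDM1A TG and nonTG it was 1.11 (SE 0.36, 0.40 and 0.40, adjusted p = 0.544, 0.68 and 0.591 by limma). Cphx1, a homeobox gene of the early mouse embryo, had 5.08, 6.43 and 4.92 in the KDM1A TG arrays, 4.31 and 5.39 in the nonTG arrays and 5.99, 4.42 and 6.17 in the C57BL/6 arrays, and its log2 changes of -0.05, -0.68 and 0.62 did not pass (adjusted p = 0.953, 0.681 and 0.847 by limma).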

How the data were processed

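RNA of 8 pools of 2-cell embryos was measured on 1 array each, labelled with an Affymetrix kit per the labels' protocols. The authors deposited 1 log2 expression value per probeset and array. RMA, oligo, limma and R 3.1.0 are named by the submitters' processing notes. Beyond the name RMA, the method for background correction is not given in the sources used here, nor is that for filters. Values were used as deposited.

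Of 22961 probesets, 15745 carried 1 symbol, 1320 several and 5896 were unnamed here. The brightest probeset stood for a gene, and genes with a mean above the 30th percentile of probesets (2.07) were tested. Group means were fitted over all 8 arrays by limma 3.58.1 (lmFit, then eBayes, R 4.3.3) and two-sided p-values were adjusted by Benjamini-Hochberg across the 11444 genes. Tested on simulated data for KDM1A TG against C57BL/6, this found 33.8% of the genes changed 2-fold and 100% of those changed 4-fold. The simulated noise was normal, independent between genes and arrays, equal in all arrays and drawn from limma's own variances. The deposited arrays differ in spread, and the members varied more within groups than the median gene. These rates are therefore not rates for the members. Correlations over arrays were tested by enumerating all orders of the arrays (exact permutation, two-sided, scipy 1.17.1). All 4 members' gene identifiers matched RefSeq. Members, lists and tests were chosen with earlier results of these data known, and the 12 relations with list means after the members' values were seen. Named genes are the members, homeobox genes, the 4 genes per embryo list with the smallest p, and the 5 genes most alike per member, leaving out predicted and small RNA genes. Alternatives covered scaling, filter, variance model, weights, arrays, replicate number, probeset choice and a covariate.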

Additional observations from a re-analysis of the deposited data

How the results depend on the processing

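Of 240 values for the 12 member results under 20 alternatives, 219 kept direction and stayed short of the threshold, and 20 turned direction. The remaining 1 passed (Obox1 lower in KDM1A TG than in C57BL/6 with array weights, log2 change -0.90). Many of the 219 could not turn. The filters, the trended variance, the arrays of both groups alone and the mean of probesets leave the members' fitted log2 changes as they were. So does leaving out an array of the third group, and the 219 are therefore not a measure of stability. For KDM1A TG against C57BL/6, the covariate gave 0.70, 0.24 and 0.71 and leaving out KDM1A TG replicates 1 and 3 gave 0.30, 0.30 and 0.45 for Obox1, Obox2 and Obox3. Obox6 turned to -0.27 with quantile normalization, -0.35 with cyclic loess and -0.20 with array weights. For nonTG against C57BL/6 the covariate turned Obox6 to 0.37. Leaving out 1 array at a time gave, for Obox1, Obox2, Obox3 and Obox6, -0.61 to 0.23, -0.34 to 0.031, -0.47 to 0.10 and -0.35 to 0.28 (KDM1A TG against C57BL/6), -1.39 to -0.08, -0.995 to -0.06, -1.30 to -0.07 and -0.94 to -0.07 (nonTG against C57BL/6), and -0.14 to 1.17, -0.069 to 0.87, -0.10 to 1.14 and 0.08 to 0.95 (KDM1A TG against nonTG). The cause of these turns was not tested.

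Single values turned without C57BL/6 replicate 1 (Obox1 0.23), without KDM1A TG replicate 1 (Obox1 0.20, Obox3 0.10), without C57BL/6 replicate 3 (Obox2 0.01), without KDM1A TG replicate 3 (Obox2 0.031), and without C57BL/6 replicate 2 or KDM1A TG replicate 2 (Obox6 -0.32 and -0.35).

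For correlations, deviations from group means gave 0.011 for Obox1 with Obox2 and -0.044 for Obox2 with Obox3, and without 2 arrays Obox1 with Obox3 (0.82) and Obox3 with Obox6 (0.61) no longer passed.

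The count of genes called was 83 for KDM1A TG against C57BL/6. It was 5 with quantile normalization, 5 with cyclic loess, 151 with median centring, 138 with no filter, 53 with the filter at the 50th percentile, 128 with a trended robust variance, 1694 with array weights, 9 with the covariate, 0 without KDM1A TG replicates 1 and 3, and 9 to 262 leaving out 1 array. For nonTG against C57BL/6 it was 15, and 1, 1, 44, 9, 30, 47 and 3 under quantile, cyclic loess, no filter, the 50th percentile, trend, weights and without KDM1A TG replicates 1 and 3, 5 with only the arrays of both groups, and 3 to 79 leaving out 1 array. For KDM1A TG against nonTG it was 5, and 2, 2, 2, 9, 3 and 2 under quantile, cyclic loess, the 50th percentile, trend, weights and without KDM1A TG replicates 1 and 3, 8 with only the arrays of both groups, 3 with the mean of all probesets, 17 with the covariate, and 2 to 17 leaving out 1 array.

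Deviations of same-numbered arrays correlated at -0.38 to 0.18, and those of differently numbered arrays at -0.257 to 0.257. Deviations within such small groups cancel each other, so this cannot tell whether replicate numbers pair the arrays. As a replicate block the numbers gave 23 genes for nonTG against C57BL/6. The members' log2 changes there were -0.68, -0.54, -0.64 and -0.50, with no member called.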

Other observations

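Other homeobox genes of oocyte and embryo were covered thinly, since 5 of 24 listed genes had a probeset of their own symbol here, and all 5 were tested. None passed in any comparison (limma). For nonTG against C57BL/6 all 5 had a log2 change below 0, with -0.05 for Nobox, a regulator of oocyte genes in the mouse ovary, -0.37 for Sebox and -0.66 for Rhox9, beside Obox7 and Cphx1. Nobox had its highest value, 3.98, in C57BL/6 replicate 3, against 1.64 to 2.95 in the other 7 arrays, a pattern that none of the 4 Obox members had.

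The promoter windows of the Obox genes outside the 4 members belong to the same group of sequences. Obox7 and Obox5 share 134 bases in a row, and the letters TATATAA begin 5 bases before the annotated start of Obox7 and 31 before that of Obox5.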
